A study of Mus musculus with 35 samples.

Results

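The 36 genes described here encode core protein components of the mouse spliceosome and were taken from a fixed list of names, all 36 of which were found once among the 37310 genes of the annotation used (GENCODE vM1, mm9). They were grouped by the particle their protein belongs to. U1 had 3 genes (Snrnp70, Snrpa and Snrpc), the Sm ring 7 (Snrpb, Snrpd1, Snrpd2, Snrpd3, Snrpe, Snrpf and Snrpg) and U2 10 (Snrpa1, Snrpb2, Sf3a1 to Sf3a3 and Sf3b1 to Sf3b5). U2AF and SF1 had 3 (U2af1, U2af2 and Sf1), U4/U6 3 (Prpf3, Prpf4 and Prpf31) and U5 5 (Prpf8, Snrnp200, Eftud2, Prpf6 and Snrnp40). The Prp19 complex had 2 (Prpf19 and Cdc5l), and 3 were other Prp factors (Prpf4b, Prpf38b and Prpf39). At least 1 tag was listed on each of the 36 genes, and 33 passed the filter on low values. Snrpc, Snrpg and Sf3b5 did not pass it and enter no test; they held 344, 292 and 233 tags over all libraries.

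The study mapped RNA contacts of 7 SR proteins (SRSF1 to SRSF7) and of the mRNA export receptor NXF1 by iCLIP, a method that crosslinks protein to RNA with UV light (254 nm) in living cells and places each contact at 1 nucleotide. All lines were P19 cells, a mouse embryonal carcinoma line, each a stable clone carrying a GFP-tagged mouse BAC of 1 protein expressed at about its natural level, and the crosslinked RNA was taken down with an antibody to GFP. SRSF1 and SRSF5 each had 4 libraries, SRSF3, SRSF4, SRSF6 and NXF1 each 3, SRSF2 5 and SRSF7 6, and there was a Control of GFP with a nuclear localisation signal (4 libraries, used here only as 1 pooled table). Because each protein was represented by 1 clonal line, the protein and its clone cannot be told apart, and each p-value speaks only of the spread among the libraries of a clone.

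The measured value is the number of crosslink tags (unique cDNAs) at positions that passed the authors' threshold, given as CPM, tags per 1000000 listed tags of the library. Where nothing was listed the value is 0, which is not evidence that contact was lacking. Tags rise with the amount of a transcript as well as with binding, and the 2 cannot be told apart here, since no RNA level was used. Listed tags ran from 13038 to 4459523 per library (median 237488), so that 1 tag was worth from 0.224 to 76.7 CPM. The shallowest of the 3 SRSF6 libraries held 1155384 tags, the deepest of the 4 SRSF5 libraries 627982 and the deepest NXF1 library 237488. The pooled Control held 21880 tags, and 3 tags in it equal 137 CPM. The file headers of the libraries labelled SRSF2 replicates 2 and 5 name SRSF1, so counts of calls were repeated without them. Run years in the headers were 2013 for SRSF2, SRSF5, SRSF6 and SRSF7 replicates 1 to 3 and 2014 for the rest, so that SRSF2, SRSF5 and SRSF6 cannot be told apart from the earlier year. All 7 markers of pluripotent P19 cells had tags, from 14 of the 31 libraries for Dppa4 to 28 for Dnmt3b. Of the markers of other cell types, the 4 of fibroblasts had tags in 5 (Col3a1) to 12 libraries (Thy1) at up to 26.4 CPM, Gata6 of endoderm in 5 at up to 11.1 CPM and Pax6 of neural cells in 3 at up to 134.8 CPM, while the 3 of blood and Neurod1, Afp, Alb and Sox17 had none.

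The spliceosome removes introns from pre-mRNA. U1 recognises the 5′ splice site, SF1 and U2AF mark the branch point and the 3′ splice site, and the U2 particle, with its SF3A and SF3B complexes, then takes the branch point. The U4/U6 and U5 particles join and are rearranged into the active enzyme with the help of the Prp19 complex, and a ring of Sm proteins forms the base of the U1, U2, U4 and U5 particles. SR proteins bind exons, classically to enhance splicing, and several shuttle to the cytoplasm, where NXF1 carries mRNA. Here the transcripts of the spliceosome's own genes are the RNA that is bound.

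The members held 1.01% ± 0.0414 (SD, n = 3) of the listed tags in SRSF6, the highest mean of the 8 proteins. Their share was 0.567% ± 0.0584 (n = 3) in SRSF3, 0.455% ± 0.315 (n = 3) in SRSF4, 0.418% ± 0.255 (n = 5) in SRSF2 and 0.322% ± 0.323 (n = 6) in SRSF7. Without the 2 libraries of mixed labels, the SRSF2 libraries held 0.146%, 0.185% and 0.407%. The share was 0.311% ± 0.250 (n = 4) in SRSF1, 0.238% ± 0.237 (n = 4) in SRSF5 and 0.101% ± 0.0534 (n = 3) in NXF1. The SRSF6 libraries (0.964% to 1.04%) lay above all other libraries, the highest of which was SRSF4 replicate 2 at 0.790%, while all other neighbours in this order overlapped. This gap rests on 1 gene, Prpf4b. It held 6791 of 23772, 3868 of 12060 and 6435 of 20424 member tags in SRSF6 replicates 1 to 3. In SRSF4 replicate 2 it held 831 of 10005. Without Prpf4b the SRSF6 libraries did not all lie above SRSF4 replicate 2. The Control listed 21 tags on 7 members, 0.0960% of its total, which is close to the 0.101% mean of NXF1. Of the 36 members, 23 had their highest protein mean in SRSF6, 7 in SRSF3, 2 each in SRSF2, SRSF4 and NXF1 and none in SRSF1, SRSF5 or SRSF7. The lowest mean was in NXF1 for 24 members, of which 11 were listed at 0 in all 3 NXF1 libraries. Depth moved with these orders: all 36 members had tags in every SRSF6 library, against 5 in the shallowest SRSF1 library and 1 in the shallowest SRSF7 library, and the part of depth in the order was not tested.

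**Figure D1:**
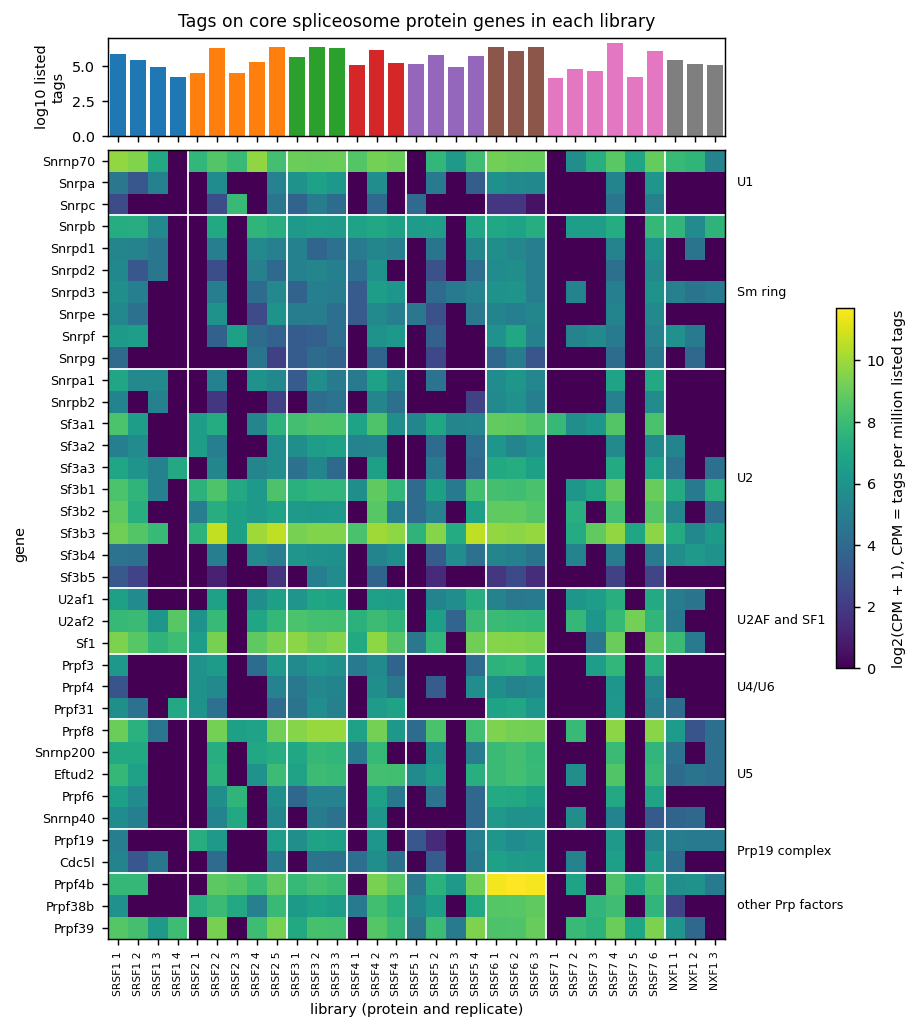
Tags on the 36 genes (rows, by particle) in the 31 libraries (columns, by protein) as log2(CPM + 1), with the log10 of each library's listed tags as bars above. Prpf4b in the 3 SRSF6 libraries (2923 to 3348 CPM) is the brightest row segment, and the dark columns are shallow libraries.

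Levels between genes were compared only per length, as exonic tags in CPM per kb of exon (mean of the 8 protein means). Snrnp70, which encodes U1-70K, was highest at 143.5, followed by Prpf4b (113), Sf3b3 (100.2), U2af2 (64.8), Sf1 (51.3) and Snrpb (50.9). Snrpc was lowest at 0.924, below Prpf4 (3.62), Snrpb2 (4.90) and Sf3b4 (6.02). The Sm genes are short and have many retrocopies in the mouse genome, so their tags are uncertain where reads could be split between copies.

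Positions that carried the most tags are shown first, since the results below turn on these exons and introns. Of the 12 single exons and introns with the highest CPM (mean of the 8 protein means), 7 windows of 30 nt are printed 5′ to 3′ from the mm9 genome, with the listed crosslink nucleotide in capitals. The first is in exon 15 of Prpf4b (chr13:34993434-34993463, plus strand), in the coding part, and the second in coding exon 2 of the same gene (chr13:34975736-34975765, plus strand). The third is in the 3′ UTR of Snrnp70 (chr7:52631868-52631897, minus strand) and the fourth in its intron 7 (chr7:52636184-52636213, minus strand), 10 nt from the 3′ splice site counting the last intron base as 1. The fifth and sixth lie in intron 5 of Snrpb, at intron base 99 (chr2:129998659-129998688, minus strand) and base 57 (chr2:129998701-129998730, minus strand). The seventh is in the 5′ UTR of U2af2 (chr7:5013858-5013887, plus strand).
Prpf4b exon 15: tgcagcatgcattcaTccaggaaaaaattt
Prpf4b exon 2: cccatccaaaagaagCaagtctcaagacca
Snrnp70 3′ UTR: tctgagggtagatttTtttttttaatccgg
Snrnp70 intron 7: tccccctcccccacaTctgttgcagccgct
Snrpb intron 5, base 99: gaagctgatgatgcgTctgtgtaattaagc
Snrpb intron 5, base 57: acaatgccttagctgGattcatgatgaaat
U2af2 5′ UTR: agctgcacagggcccTacgcggccgcctaa

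The exon 15 position of Prpf4b had tags in 15 of 31 libraries and reached 34.6 CPM in SRSF6 replicate 2. The exon 2 position had tags in 3 libraries only, and its highest value was 17.0 CPM in SRSF6 replicate 3. The Snrnp70 intron position had tags in 8 libraries and that of U2af2 in 17, with 121 CPM in SRSF7 replicate 5, where 1 tag equals 60.4 CPM.

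Prpf4b encodes a kinase that associates with the tri-snRNP, and its tags set SRSF6 apart. The gene (chr13:34967363-34994746, plus strand, 15 exons) held 2923, 3348 and 3038 CPM in the SRSF6 libraries. It held 222, 223, 0 and 0 in SRSF1, 0, 433, 371, 239 and 469 in SRSF2, 227, 295 and 249 in SRSF3 and 0, 656 and 402 in SRSF4. The other groups held 24.0, 175, 79.1 and 558 in SRSF5, from 0 to 345 (median 115) in SRSF7 and 54.7, 64.1 and 27.6 in NXF1. All 3 SRSF6 values thus lay above the highest other library, SRSF4 replicate 2. Against the mean of the other 6 SR proteins the log2 difference was 4.70 ± 1.04 (SE; adjusted p = 0.00933, limma voom with Benjamini-Hochberg adjustment over 6110 genes), in a comparison whose median over all genes was 1.04. The call was lost when any 1 of the 3 SRSF6 libraries was left out (adjusted p = 0.0794 to 0.145), under trimmed-mean scaling, with limma-trend and with no CPM minimum (adjusted p = 0.0585 to 0.169). Within the libraries of over 1000000 tags it remained. In SRSF6 the gene ranked 6 among 22380 protein-coding genes by mean CPM, ahead of Srsf6 itself at 17. None of the 9 genes within 250000 nt of Prpf4b exceeded 6.14 CPM in any SRSF6 library.

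The tags of Prpf4b in SRSF6 were spread over the gene. Exon 2 held 952 ± 85.3 CPM (SD, n = 3) in SRSF6 and at most 60.8 in any other library, and the last exon, which holds the 3′ UTR, 862 ± 120 against at most 345. All 3 SRSF6 libraries lay above every other library in 10 of the 15 exons and in 7 of the 14 introns. Intron 1 alone held 205 CPM in SRSF6, where no other library passed 2.57. Exon 10 was an exception, with 45.3 CPM in SRSF6 and 202 in 1 other library. By gene part, the log2 difference of SRSF6 was 5.11 ± 1.01 in the CDS (adjusted p = 0.00255, limma voom), 5.04 ± 0.91 in introns (adjusted p = 0.00136) and 2.90 ± 0.91 in the 3′ UTR (adjusted p = 0.0372). No single left-out library ended the CDS or intron calls, but the CDS call was lost with limma-trend and with no CPM minimum (adjusted p = 0.0619 and 0.102) and the intron call with no CPM minimum (0.0831). The 3′ UTR call was lost in 5 of the leave-one-out fits (adjusted p = 0.052 to 0.176) and under 4 other alternatives (0.0888 to 0.199). Other proteins also held tags in the 3′ UTR, up to 249 CPM in SRSF4 replicate 2 and 233 in SRSF5 replicate 4. They held tags in the CDS as well, such as the 60.8 CPM of exon 2.

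**Figure D2:**
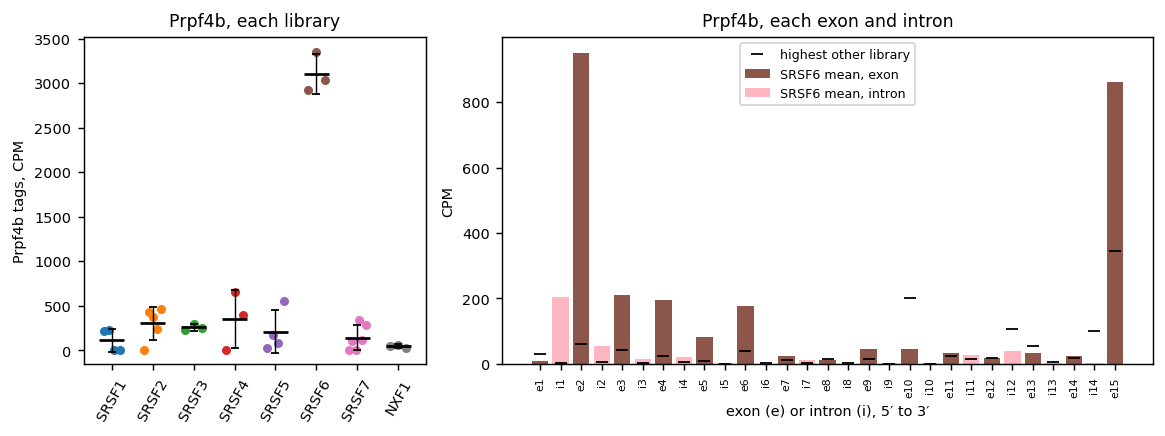
Left, Prpf4b tags (CPM) in each library (points) with the mean (line) and SD (bar) of each protein. Right, mean CPM of SRSF6 in each exon and intron of Prpf4b in 5′ to 3′ order (bars), with the highest value among all other libraries (dashes). The 3 SRSF6 points (2923 to 3348) stand above all others (at most 656), most of all in exons 2 and 15.

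In the comparison of SRSF6 with the other 6 SR proteins, 2 of 33 members were higher at gene level and 0 lower, with 4.86% of all 6110 genes called (4.14% higher). The members' median log2 difference was 1.44 and that of all genes 1.04. The other member was Prpf3, a U4/U6 protein whose gene spans chr3:95634047-95659808. It held 192, 201 and 137 CPM in SRSF6, from 0 to 75.3 in SRSF1 and 62.2, 87.8, 0, 16.7 and 78.2 in SRSF2. It held 46.4, 69.2 and 57 in SRSF3, 27.7, 46.6 and 12.6 in SRSF4, 0, 0, 0 and 15.9 in SRSF5 and from 0 to 215 (median 46.8) in SRSF7. The SRSF6 libraries overlapped with those of SRSF7, since SRSF7 replicate 4 was the highest of all. The log2 difference was 2.85 ± 0.84 (adjusted p = 0.0396, limma voom). The Prpf3 call was lost without any 1 of SRSF6 replicates 1 to 3, SRSF3 replicate 1, SRSF4 replicates 1 and 3 or SRSF5 replicate 2 (adjusted p = 0.0515 to 0.240). It was also lost under trimmed-mean scaling, with coding-gene totals, with limma-trend and with no CPM minimum (adjusted p = 0.0993 to 0.321). The Control listed 3 tags on Prpf3.

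At the level of gene parts, 11 of the 55 tested member parts were higher in SRSF6 and 0 lower, with 11.1% of all 7352 parts called (9.73% higher). Beside the 3 parts of Prpf4b these were the CDS of Prpf3, Prpf6, Prpf31, Sf3a3, Sf3b2 and Cdc5l and the 3′ UTR and introns of Prpf38b. The CDS of Cdc5l, a Prp19 complex protein, held 87.4, 79.6 and 68.0 CPM in SRSF6 and 0 in all 3 NXF1 libraries, and reached 81.4 in SRSF7 (log2 difference 2.96 ± 0.74, adjusted p = 0.0105, limma voom). The CDS of Sf3b2, an SF3B subunit, held 391, 398 and 315 CPM in SRSF6 and 354 in SRSF1 replicate 1 (3.05 ± 0.96, adjusted p = 0.0364). The CDS of Prpf31, a U4/U6 protein, held 88.7, 98.7 and 61.8 CPM in SRSF6 and 87.8 in SRSF4 replicate 3 (2.63 ± 0.72, adjusted p = 0.0172). In these 3 the SRSF6 libraries therefore did not stand clear of all others. The 3′ UTR of Prpf38b held 56.4, 39.8 and 60.4 CPM in SRSF6, and 61.6 in SRSF4 replicate 2 (3.42 ± 0.71, adjusted p = 0.00309). The remaining 4 differences were between 2.13 and 2.95, with adjusted p from 0.0193 to 0.0427. Of the 11 calls, 3 (the CDS and introns of Prpf4b and the 3′ UTR of Prpf38b) held in every leave-one-out fit that tested them. Without SRSF6 replicate 1 or 3 or SRSF4 replicate 2, the 3′ UTR of Prpf38b did not pass the filter. Those fits therefore did not test it. The intron call of Prpf38b was lost without SRSF6 replicate 1 or 2 (adjusted p = 0.135 and 0.150, limma voom). The other 7 were lost without any 1 of the 3 SRSF6 libraries (adjusted p up to 0.193); of these, Prpf6 was lost in 10 and Sf3a3 in 7 of the 31 fits. Trimmed-mean scaling left 4 of the 11 calls, limma-trend 1 (the introns of Prpf4b) and no CPM minimum 0. Among the other 49 tested spliceosome genes of a second fixed list, 8 were higher in SRSF6 and 0 lower at gene level (median 1.99). Of all 6110 genes 4.14% were higher.

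Over all 31 libraries, the member calls of SRSF3 were by gene part. At gene level 0 of 33 members were called (limma voom; 6 at an unadjusted p under 0.05, and 0 called with limma-trend), where 10.9% of all genes were called. The lowest p was that of Snrpa, which encodes a U1 protein (log2 difference 1.89 ± 0.74, adjusted p = 0.0908). Among the 10 libraries of over 1000000 tags (5 SR proteins, 2 of the libraries SRSF3; a choice made after seeing the data), 13 of 31 members were called in SRSF3, 3 higher and 10 lower, where 40.9% of all genes were called. The 3 higher were Prpf8, Snrpa and Sf3a2, and the lowest was Sf3b2 (log2 difference -1.92 ± 0.24, adjusted p = 0.000147, limma voom). Among the 55 parts of the fit over all libraries, 4 were higher and 3 lower, where 20.6% of all parts were called (16.2% higher and 4.37% lower). The introns of U2af2, the large subunit of U2AF (chr7:5013745-5031534, plus strand), held 161, 158 and 165 CPM in SRSF3. They were listed at 0 in all 4 SRSF1 libraries, in 3 of 5 SRSF2, 2 of 3 SRSF4, 3 of 4 SRSF5 and all 3 NXF1 libraries, and reached 95.7 in SRSF5 replicate 4, 66.2 in SRSF7 and 61.9 in SRSF2. The SRSF3 libraries thus lay above all others (log2 difference 4.02 ± 1.08, adjusted p = 0.00823, limma voom). The introns of Snrnp70 (chr7:52631824-52651062, minus strand) held 381, 369 and 396 CPM in SRSF3, against at most 236 in SRSF2, 205 in SRSF4, 199 in SRSF1, 160.3 in SRSF7, 155 in SRSF6, 71.6 in NXF1 and 31.9 in SRSF5 (2.50 ± 0.74, adjusted p = 0.0156). The introns of Eftud2, the U5 GTPase, held 36.6, 46.9 and 52.3 CPM in SRSF3 and overlapped with SRSF7, which reached 54.6 (3.54 ± 1.02, adjusted p = 0.013). The 3′ UTR of Prpf8, the large U5 scaffold protein, held 61.1, 43.7 and 48.2 CPM in SRSF3 and at most 23.7 elsewhere (3.25 ± 0.76, adjusted p = 0.00279). Only the SRSF3 libraries reached the 42.1 CPM of the filter there, so this part was tested only through the group called higher.

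The 3 parts that were lower in SRSF3 were untranslated. The 3′ UTR of Prpf38b held 0, 0 and 1.03 CPM in SRSF3, beside the 39.8 to 60.4 of SRSF6 (log2 difference -4.01 ± 1.0, adjusted p = 0.00489, limma voom), but all 4 SRSF5 libraries were also listed at 0. The 3′ UTR of Snrnp70 held 0, 7.43 and 6.16 CPM in SRSF3, 89.6, 81.2, 92.0 and 0 in SRSF1 and 20.7, 35.5 and 17.0 in SRSF6 (-2.53 ± 0.86, adjusted p = 0.0327). The 5′ UTR of Prpf39, a U1-associated factor, held 0, 4.18 and 2.56 CPM in SRSF3 and 9.90, 19 and 7.55 in SRSF6 (-2.38 ± 0.66, adjusted p = 0.0102). In all 3, shallow libraries of other proteins were also listed at 0. The fit adds 0.5 tags to every value, which is 38.3 CPM in the shallowest and 0.112 CPM in the deepest library, so that a 0 counts as more in a shallow library. With limma-trend on log2(CPM + 1), where a 0 counts the same in every library, none of these 3 calls remained and 3 of the 4 higher ones did, the exception being the introns of Snrnp70. With no CPM minimum only the 3′ UTR call of Prpf38b remained of the 7. Except for the 3′ UTR of Prpf8, the SRSF3 part calls were lost without SRSF3 replicate 2 or 3, and those of Snrnp70 also without replicate 1 (adjusted p = 0.0501 to 0.176, limma voom). The 3′ UTR of Prpf8 passed the filter only with all 3 SRSF3 libraries. The fits that left out an SRSF3 library therefore could not test it.

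**Figure D3:**
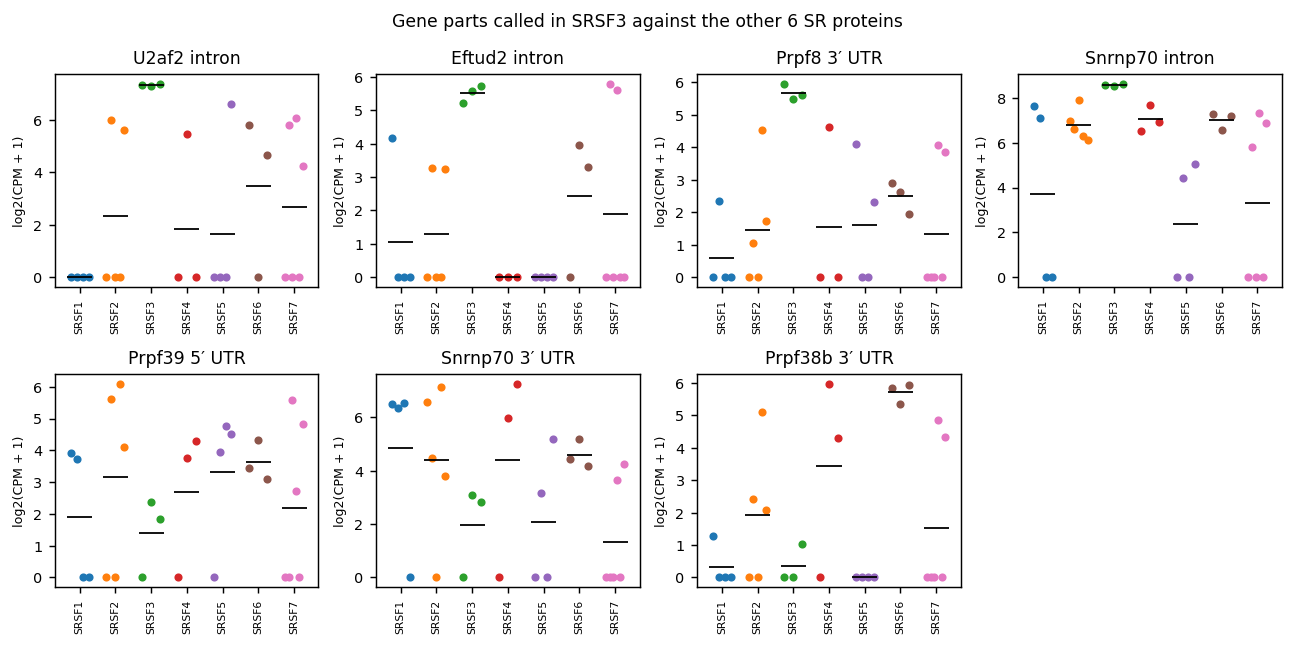
Tags as log2(CPM + 1) in each library (points) of the 7 SR proteins, with the mean of each protein (line), for the 7 gene parts called in SRSF3 against the other 6. The SRSF3 points lie highest in the introns of U2af2 and Snrnp70 and the 3′ UTR of Prpf8, and points at 0 are libraries with no listed position.

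The intronic tags of Snrnp70 in SRSF3 were mainly in intron 7 (chr7:52636189-52639173, 2985 nt), which held 222 ± 64.1 CPM in SRSF3 (SD, n = 3). It held 126 ± 42.9 in SRSF4, 77.8 ± 16.3 in SRSF6, 74.2 ± 89.3 in SRSF1 and 44.9 ± 23.4 in NXF1. SRSF2, SRSF7 and SRSF5 held 35.1 ± 41.8, 24.8 ± 38.6 and 13.6 ± 16.1. In SRSF3 the tags fell mostly in 2 stretches of 200 nt, 61.8 CPM in the first 200 bases of the intron and 71.8 CPM in the 200 bases that start 600 nt into it. The second stretch contains a short exon of another transcript (intron bases 620 to 645), and 127 tags of the intron lay on that exon over all libraries. SRSF4 had its highest value, 41.4 CPM, in the bases from 2800 on, beside the 3′ splice site. In the last exon of the gene, SRSF3 held 8.12 ± 8.49 CPM, against 200 ± 185 in SRSF1 and 175 ± 40.2 in SRSF6. Snrnp70 as a whole held 535, 508 and 548 CPM in SRSF3, 590.2, 544 and 499 in SRSF6 and 379, 611 and 527 in SRSF4. It held 909.9, 727, 138 and 0 in SRSF1, 218, 385, 236, 874 and 292 in SRSF2, 0, 212, 79.1 and 275 in SRSF5, from 0 to 491 (median 142) in SRSF7 and 240.0, 199.5 and 36.8 in NXF1. The whole gene thus had similar values in the SRSF3 and SRSF6 libraries, whose ranges overlapped, where its introns and its last exon differed.

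SRSF3 was also compared directly with SRSF7, its closest relative among the 7. No member was called (0 of 33, limma voom; 3 at an unadjusted p under 0.05, and 0 with limma-trend), where 1.91% of all genes were called. Cdc5l had the lowest p (log2 difference -2.66 ± 0.91, adjusted p = 0.133). The members' median difference was 0.22 and that of all genes 0.24. Of the 6 SRSF7 libraries 4 held at most 54936 tags, and within the libraries of over 1000000 tags 12 of 31 members were called (2 higher and 10 lower), where 33.6% of all genes were called. By part, a comparison not planned, 1 of 55 was lower and 0 higher over all libraries, where 3.55% of all parts were called (2.26% lower). It was the 3′ UTR of Prpf38b, with 0, 0 and 1.03 CPM in SRSF3 and from 0 to 28.2 (median 0) in SRSF7, so that the groups overlapped at 0 (log2 difference -5.05 ± 1.14, adjusted p = 0.00778, limma voom). This call was lost without SRSF3 replicate 2 or 3, with limma-trend and with the replicate block (adjusted p = 0.0665 to 0.57). Among the deep libraries 20 of 44 member parts were called, where 37.2% of all parts were.

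In SRSF5, members were lower and none higher. At gene level 6 of 33 members were lower, where 21.8% of all genes were called (20.2% lower), so the members' share of 18.2% was near that of all genes. Their median log2 difference was -1.38, beside -1.27 over all genes. Prpf31 (U4/U6) was listed at 0 in all 4 SRSF5 libraries, so no fold is given (adjusted p = 0.0115, limma voom), and it had tags in 16 of the 24 libraries of the other SR proteins. Prpf3 (U4/U6) held 0, 0, 0 and 15.9 CPM in SRSF5 (log2 difference -3.69 ± 0.94, adjusted p = 0.00977). Snrpa1, which encodes a U2 protein, held 0, 20.7, 0 and 0 CPM, beside 50.4, 71.8 and 41.5 in SRSF6 and 118, 44.7, 46.0 and 0 in SRSF1 (-3.03 ± 0.79, adjusted p = 0.0105). Snrpf, the SmF protein, held 0, 11.2, 0 and 0 CPM in SRSF5, against 60.3, 129.8 and 34.0 in SRSF6, but also 9.77, 11.2 and 18.5 in SRSF3 (-2.77 ± 0.91, adjusted p = 0.0305). The last 2 were U2af2, with 0, 100.3, 13.2 and 251 CPM in SRSF5 (-2.57 ± 0.74, adjusted p = 0.0164), and Snrnp70 (-2.52 ± 0.77, adjusted p = 0.0215). In all 6 the SRSF5 libraries overlapped with libraries of other proteins. All 6 calls were lost with limma-trend, and each was lost without at least 1 SRSF5 library: Prpf3 and Prpf31 without replicate 2 (adjusted p = 0.194 and 0.0818), Snrnp70 without replicate 1 (0.360), Snrpa1 without replicate 4 (0.101), U2af2 without replicate 1, 2 or 3 and Snrpf without any one (0.0577 to 0.189).

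Among the parts, 8 of 55 were lower in SRSF5 and 0 higher, where 21.2% of all parts were called (19.5% lower). These were the CDS of Prpf3, Prpf31, Snrnp40, Snrpd2, Cdc5l and Sf1, the introns of Snrnp70 and the 3′ UTR of Snrpf. The CDS of Sf1, the branch point binding protein, held 0, 95.5, 0 and 195 CPM in SRSF5, where SRSF6 held 418, 439 and 376 and SRSF3 252, 261 and 265 (log2 difference -2.57 ± 0.88, adjusted p = 0.0351, limma voom). The introns of Snrnp70 held 0, 20.7, 0 and 31.9 CPM (-2.74 ± 0.75, adjusted p = 0.0138). Prpf31 CDS and Snrpf 3′ UTR were listed at 0 in all 4 SRSF5 libraries. The CDS values of Snrnp40 (adjusted p = 0.0497) and Snrpd2 were 0, 0, 0 and 7.97 CPM, and 0, 0, 0 and 5.98. All 8 calls were lost with limma-trend. Each was lost without at least 1 SRSF5 library (adjusted p = 0.0501 to 0.504 over all lost fits): Prpf3, Prpf31 and the Snrnp70 introns without replicate 2, Snrpd2 and Cdc5l without replicate 1, 2 or 3, and Sf1, the Snrpf 3′ UTR and Snrnp40 without any one; Snrnp40 was lost in 20 of 31 fits.

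SRSF1 had 1 member called lower of 33 (2.62% of all genes called, 1.41% lower), Prpf38b, and none higher. This gene (chr3:108705585-108714645, minus strand) encodes a Prp38 family factor and held 59.7, 0, 0 and 0 CPM in SRSF1. It held 156, 248, 135, 33.4 and 236 in SRSF2, 83.1, 109 and 92.9 in SRSF3 and 27.7, 285 and 169 in SRSF4. The remaining groups held 40.1, 90.8, 0 and 136 in SRSF5, 396, 401 and 455 in SRSF6, from 0 to 274 (median 102) in SRSF7 and 4.21, 0 and 0 in NXF1. Tags were thus listed in only the deepest SRSF1 library, while every SRSF2, SRSF3, SRSF4 and SRSF6 library had them (log2 difference -3.27 ± 0.92, adjusted p = 0.0442, limma voom). The call was lost in 17 of the 31 leave-one-out fits, each SRSF1 library included (adjusted p = 0.051 to 0.43), and without the libraries labelled SRSF2 replicates 2 and 5. No member part was called in SRSF1 (0 of 55 with limma voom, 8 at an unadjusted p under 0.05, 0 with limma-trend; 3.9% of all parts called). The lowest p was that of the U2af2 5′ UTR (2.52 ± 0.77, adjusted p = 0.0565). The first exon of U2af2, which holds it, had 154 ± 169.5 CPM in SRSF1 (SD, n = 4) and 135 ± 238 in SRSF7 (n = 6), where SRSF4, SRSF6, SRSF2, SRSF3 and SRSF5 had 25.8, 18.6, 16.7, 15.5 and 8.87; the spread in SRSF1 and SRSF7 was larger than the mean.

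For SRSF2, SRSF4 and SRSF7 no member was called with limma voom or limma-trend. At gene level 0.409%, 0.426% and 2.96% of all genes were called in these 3, and 0, 0 and 1 members had an unadjusted p under 0.05. The lowest p values were those of Snrpb2, the U2B″ protein, in SRSF2 (log2 difference -1.55 ± 0.80, adjusted p = 0.618), Snrnp200, the U5 helicase, in SRSF4 (-1.65 ± 0.97, adjusted p = 0.620) and Sf1 in SRSF7 (-2.01 ± 0.91, adjusted p = 0.219). At part level, where 1.28%, 1.33% and 2.92% of all parts were called, the lowest were the Prpf39 5′ UTR in SRSF2 (1.70 ± 0.59, adjusted p = 0.193), the Prpf38b 3′ UTR in SRSF4 (1.93 ± 0.74, adjusted p = 0.235) and the Sf3b2 introns in SRSF7 (2.04 ± 0.73, adjusted p = 0.126). The unadjusted p was under 0.05 for 1, 1 and 4 of the 55 parts. Among the 10 libraries of over 1000000 tags, 10 of 31 members were called in SRSF2 (24.6% of all genes), 1 in SRSF4 (5.38%) and 10 in SRSF7 (21.2%). By part these counts were 11, 2 and 14 of 44. They are given without the share of all parts called and show no trait of the members. The 2 deep SRSF2 libraries are those whose headers name SRSF1, and SRSF4 had 1 deep library, which is assumed to vary like the other groups. A count of 0 over all libraries therefore does not show that these proteins bind the members alike.

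**Figure D4:**
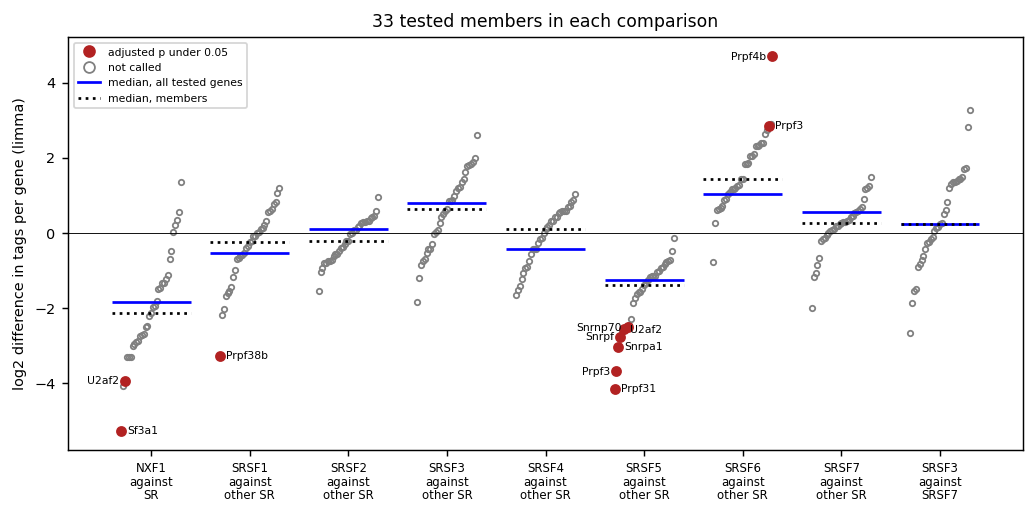
Log2 difference of each of the 33 tested members (points, sorted) in the 9 comparisons, with the median of all 6110 tested genes (blue line) and of the members (dotted line). Filled points passed an adjusted p of 0.05: Sf3a1 and U2af2 lower in NXF1, Prpf38b lower in SRSF1, 6 lower in SRSF5 and Prpf4b and Prpf3 higher in SRSF6. The fitted values of Sf3a1 in NXF1 and Prpf31 in SRSF5 rest on groups listed at 0 and are no measure of size.

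NXF1 was set against the mean of the 7 SR proteins. Of 33 members 2 were lower and 0 higher, where 6.07% of all genes were called (2.7% lower), and the members' median log2 difference was -2.13 beside -1.85 over all genes. Sf3a1, an SF3A subunit (chr11:4060353-4082544, plus strand), was listed at 0 in all 3 NXF1 libraries. It held 334, 93.4, 0 and 0 CPM in SRSF1, 93.3, 154, 0, 39.0 and 191 in SRSF2, 296, 348 and 337 in SRSF3 and 111, 359 and 56.5 in SRSF4. It held 40.1, 118, 39.6 and 41.9 in SRSF5, 480.0, 439.7 and 352 in SRSF6 and from 0 to 379.9 (median 150.1) in SRSF7. Tags were therefore listed in 24 of the 28 SR libraries, and no fold is given against a group at 0 (adjusted p = 0.0243, limma voom). U2af2 held 25.3, 0 and 0 CPM in NXF1, 226, 252, 69.0 and 403 in SRSF1, 62.2, 247, 0, 122 and 221 in SRSF2 and 337, 295 and 285 in SRSF3. It held 185, 258 and 195 in SRSF4, 248, 230.2 and 214 in SRSF6 and from 0 to 604 (median 214) in SRSF7 (log2 difference -3.95 ± 1.19, adjusted p = 0.0413). Both calls were lost when any 1 NXF1 library was left out (adjusted p up to 0.216) and under trimmed-mean scaling, and that of U2af2 also without SRSF1 replicate 2, SRSF2 replicate 4 or SRSF4 replicate 2. Scaled to tags on coding genes, 2 members were higher and 1 lower, and the median of all genes moved by 1.25. Among the 16 libraries of 2014 alone, 12 of 29 members were lower in NXF1, where 28.7% of all genes were called. At part level 1 of 55 was lower and 0 higher, where 2.82% of all parts were called (0.367% lower): the CDS of Sf3b3, with 96.8, 0 and 0 CPM in NXF1 (-4.17 ± 1.08, adjusted p = 0.0258). That call too was lost without any 1 NXF1 library (adjusted p = 0.0938 to 0.179).

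The remaining genes with high values had no call at gene level. Sf3b3 (chr8:113334139-113370703, minus strand), the SF3B subunit with the highest CPM, held 573, 386, 242 and 0 in SRSF1, 187, 1587, 101, 1046 and 1543 in SRSF2, 633, 722 and 712 in SRSF3 and 323, 1051 and 841 in SRSF4. It held 192, 755, 145 and 1519 in SRSF5, 908, 827 and 919.6 in SRSF6, from 0 to 891 (median 307) in SRSF7 and 147, 42.8 and 82.8 in NXF1. All 3 NXF1 values were below those of every SRSF3, SRSF4 and SRSF6 library but overlapped with shallow libraries of SRSF1, SRSF2, SRSF5 and SRSF7. Sf1 (chr19:6363690-6378030, plus strand) held 674, 402, 196 and 269 in SRSF1, 93.3, 639, 0, 445 and 682 in SRSF2, 823, 615 and 739.8 in SRSF3 and 139, 847 and 383 in SRSF4. It held 24.0, 209, 0 and 576 in SRSF5, 762, 749 and 682 in SRSF6, from 0 to 517 (median 11.7) in SRSF7 and 248, 28.5 and 0 in NXF1. Part of the Sf1 tags lay downstream of the end of its representative transcript (chr19:6376426-6378030), on exons of other transcripts, with 198 ± 35 CPM in SRSF3 (SD, n = 3) and 118 ± 79.0 in SRSF4.

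Prpf8 (chr11:75300279-75322951, plus strand) held 769.6, 957 and 949 CPM in SRSF3, 700.4, 609 and 599.5 in SRSF6 and 537, 179, 23.0 and 0 in SRSF1. It held 0, 617, 101, 106 and 602 in SRSF2, 102, 615 and 75.3 in SRSF4, 16, 326, 0 and 283 in SRSF5, from 0 to 815 (median 118) in SRSF7 and 88.4, 7.12 and 18.4 in NXF1. Its tags were 86.2% in the CDS, in a transcript of 42 exons. Prpf39 (chr12:66137320-66164373, plus strand) held 347, 362 and 506 CPM in SRSF6, 392, 309, 80.5 and 269 in SRSF1, 0, 634, 0, 267 and 662 in SRSF2 and 139, 318 and 295 in SRSF3. It held 0, 389.9 and 245 in SRSF4, 24.0, 261, 26.4 and 699.8 in SRSF5, from 0 to 674 (median 212) in SRSF7 and 67.4, 14.2 and 0 in NXF1. NXF1 had the lowest mean of the 8 proteins for both genes.

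Sf3b1, the SF3B subunit that contacts the branch site (chr1:55042013-55084322, minus strand), held 336, 199, 34.5 and 0 CPM in SRSF1, 187, 359.8, 135, 77.9 and 349 in SRSF2 and 171, 206 and 209 in SRSF3. It held 55.4, 459 and 213 in SRSF4, 16, 98.7, 26.4 and 283 in SRSF5, 309, 279.6 and 324 in SRSF6, from 0 to 503 (median 94.9) in SRSF7 and 147, 28.5 and 166 in NXF1. Its NXF1 values were below all SRSF3 and SRSF6 libraries and overlapped with those of the other 5 SR proteins. Sf3b2 (chr19:5273923-5295455, minus strand) held 460.2, 456 and 375 in SRSF6, 441, 162, 0 and 0 in SRSF1, 31.1, 154, 101, 77.9 and 105 in SRSF2 and 80.6, 74.3 and 79.5 in SRSF3. It held 0, 409 and 31.4 in SRSF4, 16, 35, 0 and 97.7 in SRSF5, from 0 to 378 (median 81.9) in SRSF7 and 42.1, 0 and 18.4 in NXF1. All 3 SRSF3 libraries were thus lower than any SRSF6 library.

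By particle, the summed CPM of the members was highest in SRSF6 for 6 of the 8 groups and in SRSF3 for U1 and for U2AF and SF1. It was lowest in NXF1 for 5 groups and in SRSF5 for U1, the Sm ring and the Prp19 complex. The 10 U2 genes summed to 2366 ± 137 CPM in SRSF6 (SD, n = 3) and 317 ± 153 in NXF1, and the 5 U5 genes to 1351 ± 113 in SRSF6, 1324 ± 267 in SRSF3 and 79.0 ± 52.3 in NXF1. The 3 U4/U6 genes summed to 323 ± 62.8 CPM in SRSF6, 19.3 ± 32.6 in SRSF5 and 5.61 ± 9.72 in NXF1. The Sm ring differed from these, since its NXF1 sum of 219.8 ± 83.9 CPM was within the spread of SRSF3 (221 ± 10.9) and SRSF1 (217 ± 204). Most of that NXF1 sum was Snrpb, with 211, 49.9 and 193 CPM. The pair of Prp19 complex genes reached 151 ± 18.2 CPM in SRSF6, 25.2 ± 31.1 in SRSF1 and 19.2 ± 26.1 in SRSF5. The 3 genes of U2AF and SF1 summed to 1130 ± 100.3 CPM in SRSF3 and 991 ± 62.3 in SRSF6, whose ranges overlapped. U1, led by Snrnp70, was highest in SRSF3 (630 ± 16.8) and in SRSF6 (596 ± 54.3), whose ranges overlapped.

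Members with no call at gene level and low values are given by their ranges. Snrpa, Snrpc and the Sm genes other than Snrpb and Snrpf never passed 102 CPM, save Snrpc with 236 in SRSF2 replicate 3, where it rests on 7 tags. Snrpb2, Snrpg, Sf3b5, Prpf4 and Snrpe stayed at or below 70.0 CPM. Sf3a2, Sf3a3, Snrnp40, Prpf6, Prpf19, U2af1 and Cdc5l reached at most 202 CPM, and Snrnp200 and Eftud2 299 and 369.8. In the Control, Prpf4b and Snrpf had 4 tags each, Snrpb, U2af1 and Prpf3 3, Snrnp70 and Eftud2 2, and the other 29 members 0, which allows up to 137 CPM each.

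Snrpb and Sf3b4 had their highest protein mean in NXF1, and in both the NXF1 tags lay mostly at small spots within introns of the representative transcript. In Snrpb, the SmB gene (chr2:129997150-130005139, minus strand), intron 5 (chr2:129998465-129998771, 307 nt) held 125 ± 66.4 CPM in NXF1 (SD, n = 3). It held 77.4 ± 3.88 in SRSF4, 76.0 ± 31.9 in SRSF6, 66.1 ± 53.9 in SRSF7, 57.9 ± 44.6 in SRSF1, 45.1 ± 36.6 in SRSF5, 35 ± 5.99 in SRSF3 and 30.5 ± 32.5 in SRSF2. All of its tags lay on exons of other annotated transcripts, and 1371 of its 1608 tags (85.3%) lay between intron bases 55 and 106, the shortest stretch with at least 85% of them. Base 99 was the single position with the most tags, listed in 23 of 31 libraries. The sequence printed for base 57 runs into the letters ATGATGA at intron base 62, and the letters CTGA occur at base 123 among 8 places in the intron; these are the letters of the boxes C and D of small nucleolar RNAs, and no small RNA gene is annotated there in the annotation used. The Control listed 3 tags in this intron, 137 CPM, which is above the NXF1 mean.

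Sf3b4, an SF3B subunit (chr3:95976255-95981487, plus strand), held 54.7, 78.4 and 64.4 CPM in NXF1. Nearly all of this lay within 5 nt outside the annotated small RNA gene SNORA19 in one of its introns (chr3:95980284-95980410), 65.8 ± 11.9 CPM in NXF1 (SD, n = 3), 19.4 ± 18.9 in SRSF4 and at most 16.7 as the mean of any other SR protein. Small RNA genes nested in members were counted apart from their hosts. In Sf3b3, the gene named Snord111 (chr8:113362428-113362516) held 608 ± 99.7 CPM in NXF1 and 332 ± 181 in SRSF4, and the gene named SNORD111 (chr8:113366283-113366358), 532 ± 49.5 in NXF1 and 147 ± 45.4 in SRSF4. The NXF1 libraries of the latter, 476 to 570.3 CPM, lay above all SR libraries, of which the highest was 199. In Prpf39, SNORD127 held 76.9 ± 66.8 CPM in NXF1, and here NXF1 overlapped with SRSF1 (30.9 ± 40.5). NXF1 was thus lowest on the Sf3b3 CDS and highest on a small RNA gene inside the same transcript unit.

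Over all members, coding sequence took 72.9% ± 2.54 (SD, n = 3) of the members' tags in SRSF6, 64.2% ± 5.07 (n = 3) in SRSF4, 55.5% ± 17.6 (n = 4) in SRSF1, 55.4% ± 13 (n = 4) in SRSF5 and 54.9% ± 1.45 (n = 3) in SRSF3. It took 47.1% ± 17.2 (n = 5) in SRSF2, 42.5% ± 32.6 (n = 6) in SRSF7 and 29.7% ± 9.44 (n = 3) in NXF1. Over all protein-coding genes the same shares were 68.0% ± 1.61 in SRSF6, 47.9% ± 9.35 in SRSF4 and 26.1% ± 4.92 in NXF1. In NXF1 the 3′ UTR share was 24.2% ± 4.49 on the members and 23.5% ± 2.60 on all coding genes, the highest of the 8 proteins in both. The 3′ UTR share of SRSF3 was 8.14% ± 0.453 on the members and 15.1% ± 1.33 on all coding genes, with no overlap between the 3 libraries' values (7.70% to 8.61% against 13.6% to 16.1%). Sf1 counts 0 tags in this part. Its tags beyond the representative transcript, 198 ± 35 CPM in SRSF3, were counted as exons of other transcripts. How far this lowers the members' 3′ UTR share was not tested. The intron share of SRSF3 was 21.5% ± 4.33 on the members and 24.1% ± 3.86 on all coding genes. In NXF1 introns held 19.9% ± 9.72 of the members' tags against 39.3% ± 6.91 of those of all coding genes. The former rests on 78 of 560 tags. Exons of other transcripts held 18.9% ± 6.73 of the members' tags in NXF1, against 6.42% ± 0.365 on all coding genes. The tags of Snrpb intron 5 were counted there. How far this lowers the members' intron share in NXF1 was not tested. The SRSF2 shares rest on libraries of mixed headers: without the libraries labelled replicates 2 and 5, the CDS share of the members was 37.85% ± 16.45 (n = 3).

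**Figure D5:**
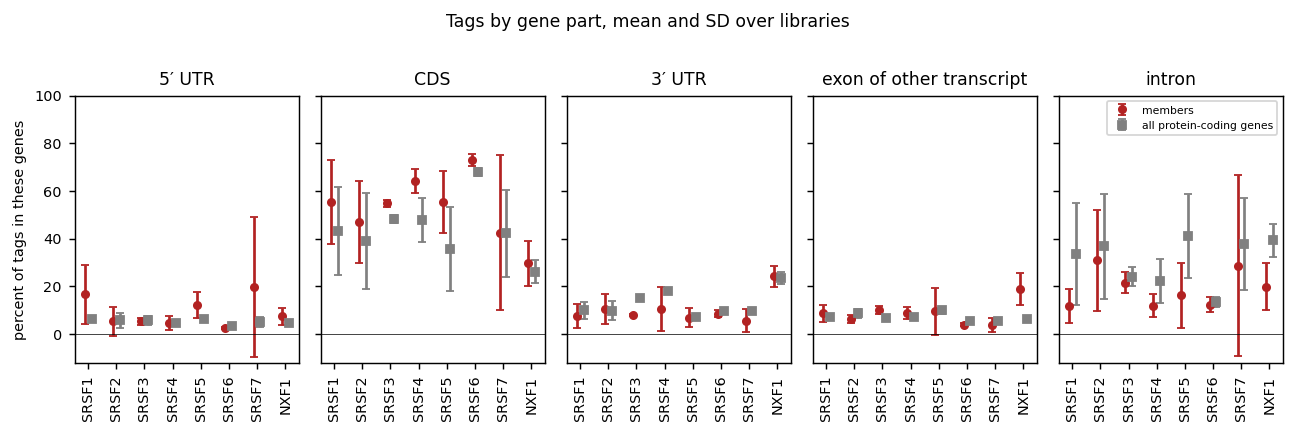
Percent of tags in each gene part (mean and SD over libraries) on the 36 genes (red) and on all protein-coding genes (grey) for each protein. SRSF6 is highest in the CDS (72.9% on the members) and NXF1 in the 3′ UTR (24.2%), and the wide bars of SRSF7 come with its 4 libraries of few tags.

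The motifs CNTC and GGAGA were looked for in the 21 nt around each listed CDS position of the members, on the sense strand only. CNTC, known as a core of SRSF3 sites, was present around 53.2% ± 5.90 of the CDS tags in SRSF3 (SD, n = 3), against 25.1% of all 63900 CDS positions of the members. The share was 28.8% ± 0.382 in SRSF6, 32.3% ± 8.85 in SRSF4 and 18.9% ± 12.65 in SRSF1. In SRSF7 it was 54.5% ± 26.95 over the 5 libraries with CDS tags. GGAGA, a purine motif known for SRSF1, was present around 15.7% ± 12.4 of the CDS tags in SRSF1 (n = 4) and 2.47% ± 0.309 in SRSF3, against 4.62% of all CDS positions. The SRSF1 libraries ran from 6.82% to 33.3% (median 11.3%). Means above 4.62% were also found in SRSF5 (8.72%), SRSF7 (6.70%), SRSF2 (6.62%), SRSF6 (6.21%) and SRSF4 (6.18%), while NXF1 had 1.32%. These shares are descriptions, and the 2 motifs can overlap in 1 window.

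The pooled table of NXF1 listed 1147 tags on 33 of the members. Of these, 97.6% lay within 30 nt of a listed SRSF6 position, 96.3% of SRSF2, 93.0% of SRSF3, 92.8% of SRSF4, 90.3% of SRSF1, 83.1% of SRSF7 and 77.9% of SRSF5. All 7 SR proteins had a position within 30 nt of 753 of these tags (65.65%), and 11 tags had none. The share moved with the number of member positions listed in each pooled table, from 5511 in SRSF5 to 30814 in SRSF6, so the order of the proteins cannot be told apart from depth.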

How the data were processed

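The deposited tables hold signed whole-number counts of iCLIP cDNAs (tags) per nucleotide; per the authors' methods they are unique cDNAs on mm9 with Ensembl 59 segments, kept where an FDR of 0.05 was passed (100 permutations, 15-nt neighbourhood), and their scale is listed tags, not depth. CASAVA 1.4 and the build mm9 are listed in the submitters' processing notes; no source used here names an aligner. Cluster tables were not used. The sign gives the strand (98.3% to 99.7% of coding-exon tags were on the annotated strand). Tags were assigned to GENCODE vM1 genes and parts of the transcript with the longest CDS; nested small RNA genes of up to 400 nt kept their own tags. Listed tags ran from 13038 to 4459523; the intervals and floors (3 tags) cover counting only. Genes and parts with 42.1 CPM (10 tags in the median library) in 3 or more libraries, and with 15 or more tags over all of them, were fitted with limma 3.58.1 voom (R 4.3.3) over 31 libraries of 8 groups, scaled to listed tags, with Benjamini-Hochberg adjustment over 6110 genes or 7352 parts. The fit was tested on simulated counts. These did not imitate the authors' threshold, so that test cannot speak for values of 0 in shallow libraries. Comparisons share libraries. Alternatives were trimmed-mean scaling, coding-gene totals, limma-trend on log2(CPM + 1), no CPM minimum, the replicate block, plain gene bodies, subsets by header, run year and depth, and leaving out each library. All 36 members are accounted for by particle; values per library are given for the 10 highest by mean CPM and for called members, and single exons and introns are the top 12. The members and lists were chosen with earlier results of these data known.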

Additional observations from a re-analysis of the deposited data

Results flagged for a closer look

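Among the 15 members given by library at gene level, 59 groups of 4 to 6 libraries with any tag were looked at. The search was for 1 library far from the rest of its group (Dixon's test), and 8 were marked. The test marks about 1 in 20 by chance where values are normal. A group with tags in only 1 library is always marked, so the count of 8 cannot be set against that rate. Snrnp70 held 874 CPM in SRSF2 replicate 4, where the next SRSF2 library held 385. Snrpf held 101 CPM in SRSF2 replicate 3 (29680 tags), where the next held 16.7. In SRSF5 replicate 2, with 627982 tags the deepest SRSF5 library, Sf3a1 held 118 CPM (next 41.9), and Snrpa1 (20.7 CPM) and Snrpf (11.2 CPM) were listed at 0 in the other 3. Prpf3 held 15.9 CPM in SRSF5 replicate 4 and 0 in the other 3. In SRSF1 replicate 1, the deepest SRSF1 library with 703367 tags, Prpf3 (75.3 CPM) and Prpf38b (59.7 CPM) were listed and were at 0 in the other 3. Of these 8 values, 6 are from the 2 deepest libraries of their group; the part of depth in them was not tested.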

How the results depend on the processing

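All 39 calls of single genes or parts kept their direction under every alternative that tested them. This covers 1465 pairs of a call and an alternative. In 261 of these pairs the call no longer passed the threshold, and no call passed under all. Trimmed-mean scaling kept 12 of 39 calls, limma-trend 5, no CPM minimum 12 and coding-gene totals 25; trimmed-mean scaling moved the median of all genes by -0.84 for SRSF7 and 1.21 for SRSF3 against SRSF7, and coding-gene totals by 1.25 for NXF1. For NXF1 at gene level the count of 2 became 0 under trimmed-mean scaling, 1 with limma-trend and 12 in the later run year, with 0 to 4 when 1 library was left out; for NXF1 parts the count of 1 became 0, 0 and 4, 2 with coding-gene totals and 3 at matched depth, with 0 to 2 when 1 library was left out. For each SR protein against the other 6, the 9 gene calls became 1 under trimmed-mean scaling, 0 with limma-trend, 5 with no CPM minimum, 0 in the later run year, 1 at matched depth and 44 in libraries of over 1000000 tags only (5 comparisons, a choice made after seeing the data), with 4 (without SRSF5 replicate 2) to 14 when 1 library was left out. The 26 part calls (15 higher and 11 lower) became 10 (8 and 2), 4, 8, 7, 1 and 63, with 14 (without SRSF6 replicate 1) to 29. For SRSF3 against SRSF7 the count of 0 became 1 with coding-gene totals and 12 in libraries of over 1000000 tags, and stayed 0 when any 1 library was left out. With coding-gene totals both part calls in NXF1 were higher. Leaving out the libraries labelled SRSF2 replicates 2 and 5 gave 2, 12, 0, 1 and 28 calls. The later run year could not give SRSF2, SRSF5 or SRSF6, and over 1000000 tags not NXF1, SRSF1 or SRSF5. Plain gene bodies were not run for parts. The share of all genes called moved with the setting as well. For NXF1 it was 6.07% in the main fit, 1.26% under trimmed-mean scaling, 0.835% with limma-trend and 28.7% in the later run year. For SRSF3 it was 10.9% in the main fit, 0.72% with limma-trend and 40.9% in libraries of over 1000000 tags. The member counts by setting therefore show no trait of the members. The causes were not tested.

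The replicate numbers did not pair the libraries: the mean correlation of deviations was 0.00801 for the same number and 14 of 91 pairs were over 0.1, and 8 of 31 libraries were closest to one of their own number. With the replicate block the counts were 3 and 11 genes, 1 gene for SRSF3 against SRSF7, and 2 and 25 parts. They are given without the share of all genes or parts called and show no trait of the members.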

Other observations

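Of the second fixed list of spliceosome genes, 60 of 61 names were found, all 60 had tags and 49 were tested. In NXF1 against the SR proteins 2 were lower (Rbm25 and Snrnp48) and 0 higher, where 2.7% of all genes were lower. The median log2 difference was -2.31. In SRSF5, 13 of 49 were lower and 0 higher (median -1.61), where 20.2% of all genes were lower. In SRSF3 2 were lower, Zcrb1 and Zrsr1, and 0 higher (median -0.22, beside 0.78 over all genes). Of all 6110 genes 10.9% were called there, 148 of them lower and 516 higher. By part, 18 of the 66 tested parts of these genes were higher in SRSF6 and 1 lower, where 9.73% of all parts were higher. In SRSF3 against SRSF7, 1 of 49 was lower (Zrsr1) and 0 higher, where 1.91% of all 6110 genes were called, 81 lower and 36 higher. The median was -0.77, beside 0.24 over all genes.

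The pooled table of SRSF7 listed 1449645 tags, fewer than SRSF7 replicate 4 alone (4459523), so it does not hold all tags of the single libraries.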
